A study of Mus musculus with 12 samples.

Results

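The TNF ligand and receptor superfamily genes were the rows of a mouse kidney gene-count table whose symbol was Tnf, Lta, Ltb, Ltbr, Fas, Fasl, Cd40, Cd40lg, Cd27, Cd70, Eda, Edar or Eda2r, or followed the Tnfsf or Tnfrsf numbering. They were 44 of 54532 rows: 18 ligands and 26 receptors. The receptors were grouped as 6 with a cytoplasmic death domain, 16 without one and 4 usually listed as decoys. The 12 libraries were whole kidneys of C57BL/6 mice (C57BL/6 J in the methods of the study), the cystic ones from a model of autosomal dominant polycystic kidney disease (ADPKD), collected at 18 days of age, with 3 mice in each of 4 groups. All mice carried 1 hypomorphic RC allele of Pkd1 and 1 floxed (F) allele. In the noncystic groups (Pkd1 RC/+) the floxed allele was intact, and in the cystic groups (Pkd1 RC/-) it was deleted by a Cre driven by the Ksp (Cdh16) promoter, which is active in tubule epithelium. Each of these was studied with wild-type Pkd2 (Pkd2 +/+) and with both Pkd2 alleles lacking the miR-17 binding motif of the 3′-UTR (Pkd2 Δ17/Δ17), an edit made by CRISPR/Cas9 in fertilized eggs. The mice are named here by their numbers. With wild-type Pkd2, mice 19 to 21 were noncystic and mice 25 to 27 cystic. With the motif deleted, mice 22 to 24 were noncystic and mice 28 to 30 cystic.

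Ligands of this superfamily are trimeric, mostly membrane-bound proteins that cluster their receptors on the target cell. Receptors with a death domain recruit adaptors that can lead either to NF-κB activation or to caspase and necroptotic signalling. The other signalling receptors, decoys left aside, bind TRAF proteins directly and feed the canonical and noncanonical NF-κB pathways. In the kidney, TNF and the TWEAK receptor are known from tubule injury and interstitial inflammation, and TNF is found in cyst fluid.

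Levels are CPM, read counts relative to a library size scaled by the trimmed mean of M-values (TMM), where 1 CPM stood for 17.5 to 25.8 reads in these libraries. A gene was called when its Benjamini-Hochberg adjusted p from the quasi-likelihood test of edgeR was under 0.05 over the 24642 genes with an average log2 CPM of at least -3. The SE given with a log2 change is that change without its sign, divided by the square root of the quasi-likelihood F. It is not reported by edgeR itself and is rough for changes near 0. Of the 44 members, 42 reached the level for testing. Fasl, the ligand of Fas, had at most 4 reads in a library and Cd70, the ligand of Cd27, at most 2, and neither was tested. Library totals ran from 18800307 to 24453033 reads. Pkd2, the edited gene, averaged 210 CPM in the noncystic and 226 CPM in the cystic mice with wild-type Pkd2, and 278 and 326 CPM in those with the motif deleted, and every Pkd2 Δ17/Δ17 mouse stood above every Pkd2 +/+ mouse. Xist was high in 1 mouse of the noncystic Pkd2 +/+ group, 2 of the noncystic Pkd2 Δ17/Δ17 group, 2 of the cystic Pkd2 +/+ group and 1 of the cystic Pkd2 Δ17/Δ17 group, and the labels give no sex. Every marker of a kidney segment had reads in every library, except Avpr2 of the collecting duct list with 0 reads in mouse 23, and no marker on any list was at 0 in every mouse. Mouse 30, and less so mouse 27, stood apart by adrenal genes, with 940 and 128 reads of Cyp11b1 and 1407 and 209 of Cyp21a1, where no other mouse had more than 5 of either. Without mouse 30 the members called were 2 for the motif deletion in cystic kidneys and 10 between cystic and noncystic kidneys with the motif deleted. Without mouse 27 they were 0 for the deletion in cystic kidneys and 12 between cystic and noncystic kidneys with wild-type Pkd2. The full list of nearby organs held Cyp11b1, Cyp21a1 and Star (adrenal) and Adipoq and Plin1 (fat). Of these 5 markers 2 were called lower and none higher in cystic than in noncystic Pkd2 +/+ kidneys. Their summed level was 58.4 to 147.8 CPM in noncystic and 17.9 to 69.2 CPM in cystic Pkd2 +/+ kidneys. With the motif deleted 3 were called higher and 1 lower in cystic kidneys. The part of nearby organs in these counts was not tested. Proximal tubule markers fell in cystic Pkd2 +/+ kidneys (8 of 8) and 4 of 7 collecting duct markers rose. In whole kidney, fewer cells of a type and less RNA per cell cannot be told apart.

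The motif deleted from Pkd2 pairs with the seed of miR-17, and the same 7 letters occur in other 3′-UTRs, which the edit left intact. The miRNA is shown first with its seed in capitals, as given by RefSeq for GRCm38.p6 (chromosome 14, bases 115043684 to 115043706, plus strand). Below it are the 3 matches in the 2 called members that hold one, with the 7 letters GCACTTT in capitals, cut from GENCODE M21 transcripts on GRCm38 and written along the transcript.
mmu-miR-17-5p: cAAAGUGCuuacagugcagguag
Tnfrsf21, first match: acactattctgtGCACTTTaaaaacttaac
Tnfrsf21, second match: taagtgccagtgGCACTTTatgcccagctt
Tnfsf11: tatttaactggtGCACTTTgtaattcccct
The Tnfrsf21 matches lay at bases 324 and 853 after the stop codon (chromosome 17, 43088296 to 43088302 and 43088825 to 43088831, plus strand), and both were followed by A. The Tnfsf11 match lay at base 634 (chromosome 14, 78277936 to 78277942, minus strand). Eda, Tnfrsf19, Tnfrsf22 and Tnfsf13b held 1 match each, none of them followed by A. In all, 6 of the 44 members (13.6%) had the letters GCACTTT in the 3′-UTR, next to 2474 of 21037 genes (11.8%), so the motif was about as frequent in the superfamily as elsewhere. A match of letters is not a binding site, and none was tested here.

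Per kilobase of exon, 4 receptors stood above every ligand, while no other receptor exceeded the highest ligand. In noncystic Pkd2 +/+ kidneys the highest member was Tnfrsf21, a death domain receptor, at 63.7 ± 12.9 CPM per kb (SD, n = 3), followed by Ltbr, the lymphotoxin β receptor, at 45.6 ± 2.56 and Tnfrsf1a, the main TNF receptor of epithelial cells, at 42.9 ± 2.22. The ranges of Ltbr and Tnfrsf1a overlapped, while Tnfrsf21 lay above both in every mouse. Next came Tnfrsf12a, the TWEAK receptor, at 17.7 ± 2.33 CPM per kb. The highest ligand, Tnfsf10 (TRAIL), reached 7.62 ± 0.417 CPM per kb, followed by Fas at 4.76 ± 0.559 and Tnfsf12, which encodes TWEAK, at 4.31 ± 0.155, these last with overlapping ranges. No other member exceeded 1.94 CPM per kb. In cystic Pkd2 +/+ kidneys Tnfrsf12a had moved from the 4th to the 1st place with 59.8 ± 11.3 CPM per kb, although its range overlapped that of Tnfrsf1a (53.1 ± 6.56), which overlapped Ltbr (52.8 ± 3.23). Tnfrsf21 was 4th at 30.4 ± 6.97 CPM per kb, below these receptors in every mouse.

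**Figure D1:**
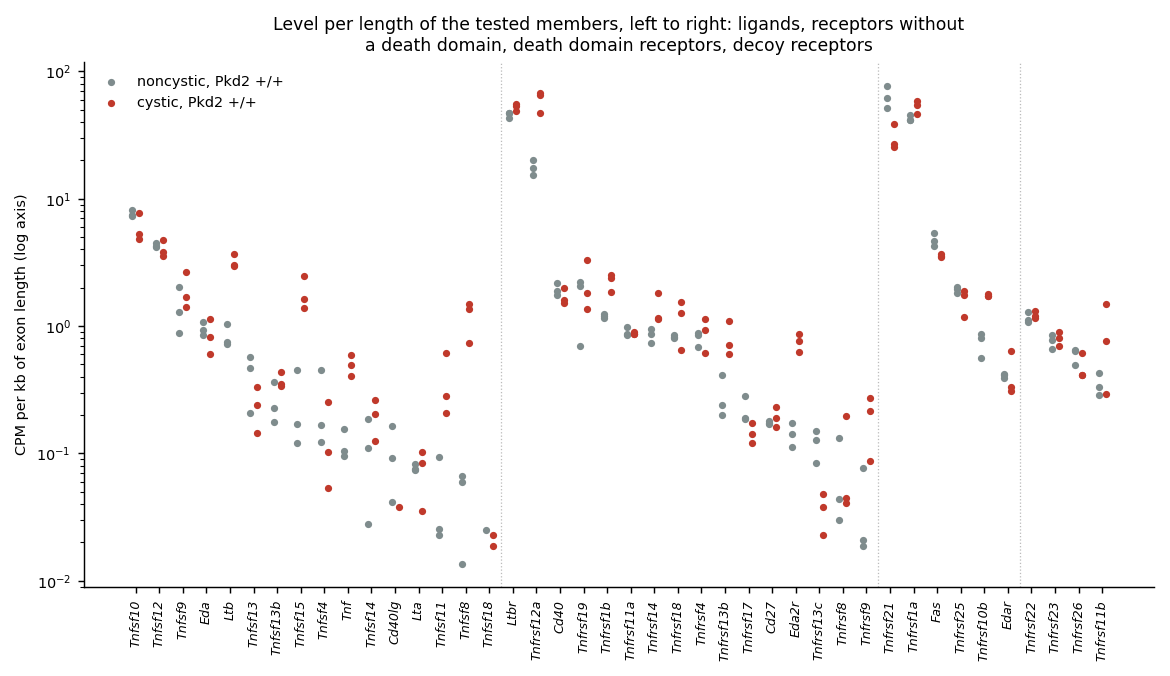
Level of the 42 tested members in CPM per kb of exon length (log axis), 1 point per mouse, in noncystic (grey) and cystic (red) kidneys with wild-type Pkd2; mice with 0 reads are not drawn. Ltbr, Tnfrsf12a, Tnfrsf21 and Tnfrsf1a stand above all other members in both groups, and Tnfrsf12a is the only one of them to rise by more than 2-fold.

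The first comparison asked which members differed between cystic and noncystic kidneys with wild-type Pkd2. Of the 42 tested, 16 were called, 14 higher and 2 lower in the cystic kidneys. The higher calls were 33.3% of the members against 16.9% of all genes tested, and the lower calls 4.76% against 14.2%. In both directions together, 38.1% of the members and 31.1% of all genes were called. Cystic and noncystic kidneys did not overlap for 14 members that were higher and 5 that were lower, together 45.2% against 41.7% of all genes. Of the 5 lower, Tnfrsf17 and Cd40lg rested on few reads and were apart only after scaling. Tnfrsf17 had 3, 4 and 3 reads in noncystic and 3, 2 and 3 in cystic kidneys. Cd40lg had 1, 2 and 4 reads in noncystic and 0, 0 and 1 in cystic kidneys. The members' median log2 fold change was 0.26, beside 0.02 for all genes. The choice of scaling matters for small changes: with library totals in place of TMM the median of all genes moved to 0.18 and the calls over all genes went from 4170 higher and 3495 lower to 6251 and 2468, while the members went from 14 and 2 to 15 and 1.

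Among the ligands 5 rose and none fell of 16 tested. Tnfsf8, the ligand of CD30 on activated lymphocytes, had 1, 4 and 5 reads (0.0519, 0.228 and 0.254 CPM) in the noncystic mice and 73, 116 and 111 reads (2.83, 5.68 and 5.23 CPM) in the cystic mice. Its level was 24.9-fold higher (log2 4.64, SE 0.54, edgeR adjusted p = 4.78e-06), the largest rise of any member. Tnfsf15, an endothelial and myeloid ligand of Tnfrsf25, stood at 1.51, 0.570 and 0.407 CPM in noncystic and 5.50, 8.27 and 4.61 CPM in cystic kidneys. The groups were far apart, by 7.32-fold (log2 2.87, SE 0.38, adjusted p = 1.62e-05). Tnfsf11 (RANKL), best known from osteoclasts and also expressed by epithelia, had 4, 1 and 1 reads (0.208, 0.0570 and 0.0509 CPM) in noncystic and 12, 13 and 29 reads (0.465, 0.636 and 1.37 CPM) in cystic kidneys. The log2 change of Tnfsf11 was 2.87 with an SE of 0.72 (adjusted p = 0.00555), without overlap between the groups.

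Tnf itself was low in every library. It had 3, 3 and 5 reads (0.156, 0.171 and 0.254 CPM) in noncystic and 21, 20 and 14 reads (0.813, 0.979 and 0.659 CPM) in cystic kidneys, 4.10-fold more without overlap (log2 2.04, SE 0.53, adjusted p = 0.00664). Ltb, which encodes the membrane anchor of lymphotoxin, lay at 1.09, 1.14 and 1.58 CPM in noncystic and 4.53, 5.63 and 4.57 CPM in cystic kidneys. The Ltb groups did not overlap either, with a log2 change of 1.94 (SE 0.42, adjusted p = 0.00185). All 5 rises kept their call with any single mouse left out.

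The receptors without a death domain gave 6 rises and no fall among 16. Tnfrsf12a measured 33.7, 38.8 and 29.8 CPM in noncystic and 90.4, 126 and 130 CPM in cystic kidneys. This change, 3.39-fold, had the smallest adjusted p of any member (log2 1.76, SE 0.17, adjusted p = 9.37e-07). Eda2r, a receptor for an ectodysplasin isoform, rose from 0.831, 1.03 and 0.661 CPM to 3.72, 4.50 and 5.08 CPM. Its 5.27-fold difference (log2 2.40, SE 0.30, adjusted p = 1.04e-05) was many times the spread within either group. Tnfrsf1b, the second TNF receptor, found mainly on immune and endothelial cells, went from 4.41, 4.73 and 4.58 CPM to 7.08, 9.59 and 9.13 CPM (log2 0.91, SE 0.21, adjusted p = 0.00302). For Tnfrsf13b (TACI), a B-cell receptor of BAFF and APRIL, the noncystic levels were 0.675, 0.570 and 1.17 CPM and the cystic levels 1.70, 3.08 and 2.02 CPM (log2 1.47, SE 0.35, adjusted p = 0.00390). None of these groups overlapped.

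The other 2 rises in this class, Tnfrsf9 and Ltbr, were less firm. With Xist as a covariate both calls were lost, as were those of Fas and Tnfrsf11b given below. Tnfrsf9, a costimulatory receptor of T cells, had 4, 1 and 1 reads in noncystic and 19, 12 and 5 reads in cystic kidneys (0.208, 0.0570 and 0.0509 against 0.736, 0.587 and 0.235 CPM), with a log2 change of 2.24 (SE 0.72, adjusted p = 0.0260). Its call was lost without mouse 20, 21, 25 or 26, with an adjusted p of up to 0.101. Ltbr lay at 110, 101 and 112 CPM in noncystic and 116, 126 and 131 CPM in cystic kidneys, a difference of 1.16-fold (log2 0.21, SE 0.08, adjusted p = 0.0440). The Ltbr call held only without mouse 25 among the 12 fits that left out a mouse, in which the adjusted p went up to 0.265, and it was lost with DESeq2 size factors (log2 0.18, adjusted p = 0.0876).

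Death domain receptors moved both ways, with 2 higher and 2 lower of 6. Tnfrsf10b, the mouse TRAIL death receptor, rose from 4.36, 3.08 and 4.73 CPM to 9.76, 9.40 and 9.37 CPM, a 2.34-fold difference (log2 1.22, SE 0.19, adjusted p = 7.51e-05). Tnfrsf1a rose modestly, from 108, 118 and 108 CPM to 119, 152 and 142 CPM (log2 0.31, SE 0.09, adjusted p = 0.0152). That call was lost without mouse 19, 21, 26 or 27, with an adjusted p of up to 0.0824. Tnfrsf21, a receptor known from neurons and lymphocytes and the most abundant member of the noncystic kidney, fell from 256, 212 and 318 CPM to 158, 105 and 111 CPM. The fall was 2.10-fold (log2 -1.07, SE 0.15, adjusted p = 3.45e-05), with every cystic kidney below every noncystic one. Fas, the prototype death receptor, stood at 9.55, 11.1 and 8.80 CPM in noncystic and 7.59, 7.34 and 7.20 CPM in cystic kidneys, a small difference without overlap (log2 -0.41, SE 0.13, adjusted p = 0.0286). It missed the threshold without mouse 19, 20, 25, 26 or 27 (adjusted p up to 0.112) and with library totals (log2 -0.25, adjusted p = 0.170). Edar and Tnfrsf25 were not called.

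Of the 4 decoys, Tnfrsf11b (osteoprotegerin), the soluble trap for RANKL and TRAIL, was called higher. The noncystic levels of Tnfrsf11b were 0.935, 1.20 and 0.814 CPM and the cystic levels 4.18, 0.832 and 2.17 CPM, so the groups overlapped, with mouse 25 the highest (log2 1.30, SE 0.47, adjusted p = 0.0470). Without mouse 25 the log2 change was 0.62 and its adjusted p 0.362, and among the fits without 1 mouse the call was kept only without mouse 26 or 30. Tnfrsf22 and Tnfrsf23, which bind TRAIL without signalling death, and their neighbour Tnfrsf26 had log2 changes of 0.08, 0.08 and -0.30, none of them past the threshold.

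**Figure D2:**
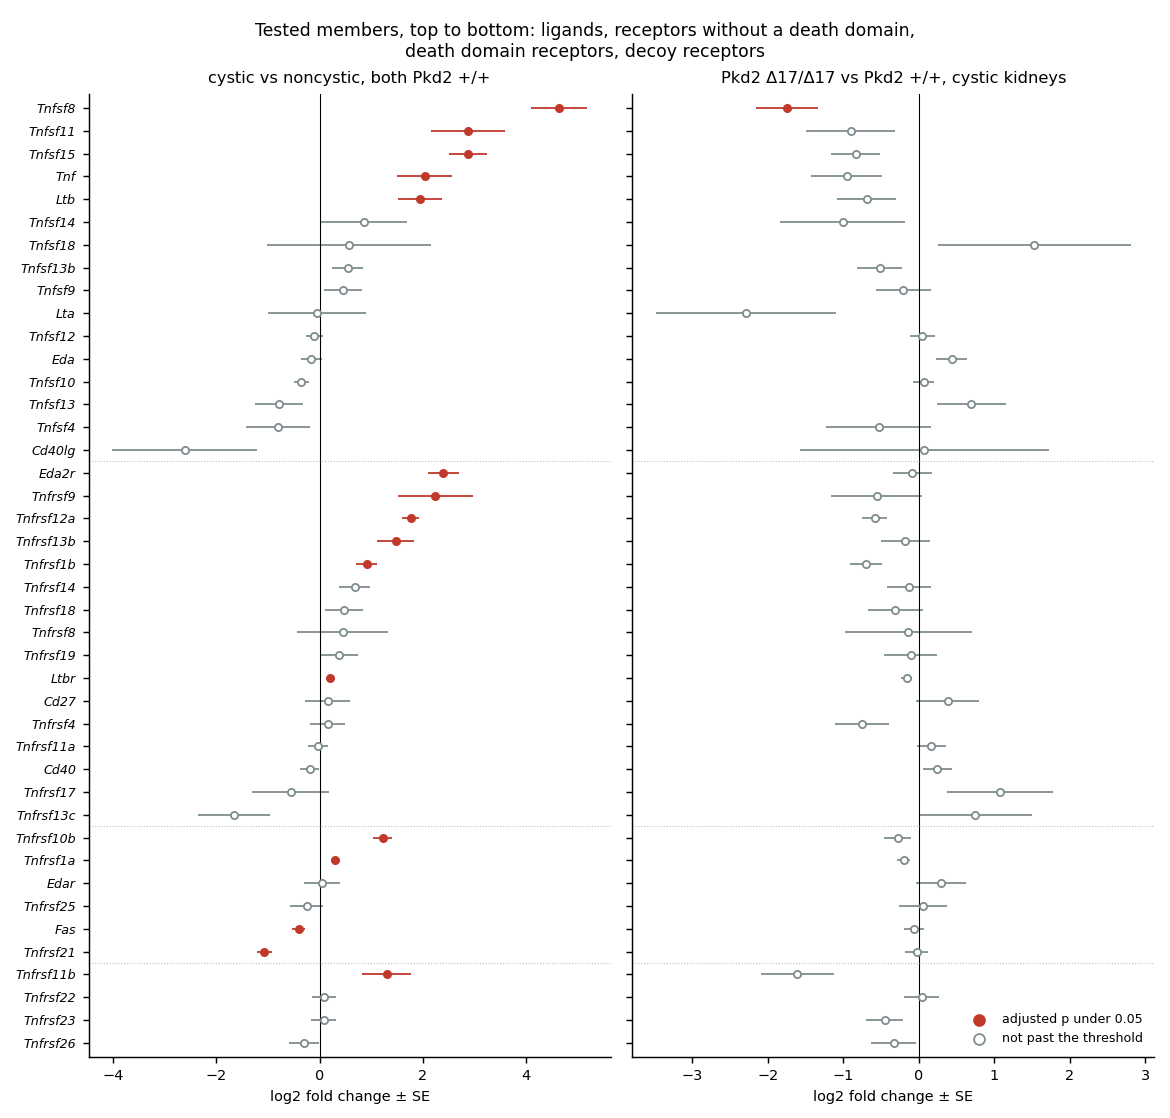
Log2 fold change (edgeR) ± SE of the 42 tested members between cystic and noncystic Pkd2 +/+ kidneys (left) and between Pkd2 Δ17/Δ17 and Pkd2 +/+ cystic kidneys (right), with 3 mice per group and called members filled in red. The SE is derived from the quasi-likelihood F. The left panel has 14 called rises and 2 called falls, and the right panel has 1 called member, Tnfsf8.

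Set out as ligand and receptor pairs, both partners rose for Tnf with Tnfrsf1a and Tnfrsf1b, for Ltb with Ltbr, and for Tnfsf11 with its soluble trap Tnfrsf11b, whose groups overlapped. The calls of Tnfrsf1a, Ltbr and Tnfrsf11b were each lost in fits without 1 mouse, as given above. In the pairs that follow 1 partner was called. Tnfsf12, the TWEAK gene, had a log2 change of -0.10 (SE 0.16, adjusted p = 0.696) while its receptor Tnfrsf12a rose; Tnfsf12 shares 48.3% of its exon bases with the readthrough gene Tnfsfm13, and Tnfsf13 shares 60.0% with Tnfsfm13 and the antisense gene Tnfsf13os together, so their counts are uncertain, as are those of Tnfrsf18, Tnfsf9, Tnfrsf23, Tnfrsf26 and Cd27, which overlap exons of other genes. Tnfsf10 was at -0.35 (SE 0.14, adjusted p = 0.0672) while its receptor Tnfrsf10b rose. In the reverse order, the receptors of the rising ligands Tnfsf8 and Tnfsf15 were not called: Tnfrsf8 had a log2 change of 0.45 (SE 0.88, adjusted p = 0.758) and Tnfrsf25 of -0.25 (SE 0.32, adjusted p = 0.616). Tnfrsf11a (RANK), the receptor of Tnfsf11, was at -0.04 (SE 0.19, adjusted p = 0.922). Tnfrsf9 rose while Tnfsf9 was at 0.45 (SE 0.37, adjusted p = 0.408), and Eda2r rose while Eda was at -0.16 (SE 0.20, adjusted p = 0.615). Tnfrsf13b rose while Tnfsf13b was at 0.55 (SE 0.30, adjusted p = 0.191) and Tnfsf13 at -0.785 (SE 0.46, adjusted p = 0.226). Whether the partners of a pair differed in their change was not tested.

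Markers of several cell types changed in the same comparison. All 8 macrophage markers (Adgre1, Csf1r, Cd68, C1qa, C1qb, C1qc, Mrc1 and Cd14) rose. Their summed level was 155 to 158 CPM in noncystic and 367 to 531 CPM in cystic Pkd2 +/+ kidneys. Of 8 T-cell markers 3 rose (Cd3g, Cd4 and Lck) and Cd8a fell, with a summed level of 9.24 to 12.9 CPM in noncystic and 9.18 to 12.8 CPM in cystic kidneys. Of 6 B-cell markers none was called by edgeR, with 0 at an unadjusted p under 0.05, and their sum was 5.19 to 5.95 CPM in noncystic and 5.11 to 5.68 CPM in cystic kidneys, while Tnfrsf13b rose. Of 5 dendritic cell markers Itgax rose (log2 2.14, SE 0.32, adjusted p = 6.03e-05) and Zbtb46 fell. In the same comparison 4 of 6 endothelial markers fell, with sums of 969 to 1104 CPM in noncystic and 596 to 764 CPM in cystic kidneys, and of 4 podocyte markers 3 fell and 1 rose. Of 6 fibroblast markers 2 rose and 2 fell, with sums of 1341 to 1451 CPM in noncystic and 1893 to 2925 CPM in cystic kidneys. Of 4 thick ascending limb markers 1 rose and 2 fell, with sums of 2644 to 3159 and 1630 to 2325 CPM. The part of these cells in the members' changes was not tested.

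Some called members are neighbours on GRCm38. Tnfsf15 (chromosome 4, 63727084 to 63745113) and Tnfsf8 (chromosome 4, 63831308 to 63861347), 2 of the 5 ligands that rose, lie 86.2 kb apart on the minus strand. Ltb, Tnf and Lta lie within a stretch of chromosome 17 from 35194439 to 35205351. Ltb and Tnf rose there, while Lta, the soluble lymphotoxin, had 2 reads in each noncystic and 3, 1 and 3 reads in the cystic Pkd2 +/+ libraries. Ltbr and Tnfrsf1a, the modest risers, lie 35.5 kb apart on chromosome 6. In contrast, Tnfrsf8 was not called although it lies 20.3 kb from Tnfrsf1b, nor was Cd27, which lies 69.6 kb from Ltbr. The other runs of neighbours held no call between cystic and noncystic Pkd2 +/+ kidneys. They were Tnfrsf26 with Tnfrsf22 and Tnfrsf23, Tnfrsf4 with Tnfrsf18, and Tnfsf9 with Cd70 and Tnfsf14. Tnfsf13 with Tnfsf12 and Tnfsf4 with Tnfsf18 were the remaining ones. Within 100 kb of another member lay 22 of the 44.

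A match to the NF-κB type motif with the letters GGG, NN and TTTCC in a row was looked for on both strands from 250 bases before to 50 after the start sites given by RefSeq (GRCm38.p6), where 34 members had 38 promoter records. It was found in 3 of these 34 members, Ltb, Tnfrsf9 and Tnfrsf25, and in 535 of all 32851 records (1.63%). The first count is by gene and the second by record, and whether the shares differ was not tested. The windows of all 3 follow, written along the gene with the match in capitals. Ltb and Tnfrsf9 rose and Tnfrsf25 was not called.
Tnfrsf25: tgagacccagGGAAAAGCCCctggctctgg
Ltb: aagggtgttcGGAAAGTCCCcgggcagggg
Tnfrsf9: cagagcagctGGGGATTTCCcaggaggccc
The Ltb match began 87 bases before the start (chromosome 17, 35194420 to 35194429, opposite strand), the Tnfrsf9 match 43 bases before it (chromosome 4, 150927956 to 150927965, same strand) and the Tnfrsf25 match 218 bases before it (chromosome 4, 152115716 to 152115725, opposite strand). In GENCODE M21 Tnfrsf9 runs from base 150914562 to 150946102 on the plus strand. The Tnfrsf9 match therefore lies inside the gene so annotated, before a RefSeq start further along. No other member with a record held these letters in the window.

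The cystic comparison was made again in mice with the Pkd2 motif deleted, where 10 of 42 members were called. They were 7 higher (16.7%, all genes 12.8%) and 3 lower (7.14%, all genes 10.2%). Without overlap lay 12 higher (28.6%, all genes 20.2%) and 7 lower (16.7%, all genes 17.7%). The 7 include Tnfrsf13c, with 9, 4 and 6 reads in noncystic and 4, 2 and 2 in cystic kidneys, apart only after scaling. Of the 10 called, 9 (90%) had also been called with wild-type Pkd2, which was 56.2% of the 16. Over all genes, the 4829 called in both comparisons were 85% of those called with the motif deleted and 63% of those called with wild-type Pkd2. With library totals in place of TMM the members called went to 10 higher and 3 lower, and the calls over all genes from 3164 higher and 2515 lower to 5334 and 1657, with a median of 0.15 in place of -0.00. Eda2r had 0.599, 1.25 and 0.495 CPM in noncystic and 3.99, 4.50 and 4.04 CPM in cystic Pkd2 Δ17/Δ17 kidneys, a log2 change of 2.41 (SE 0.30, adjusted p = 2.55e-05). Tnfsf8 had 2, 3 and 1 reads (0.109, 0.164 and 0.0550 CPM) in noncystic and 13, 24 and 47 reads (0.625, 1.17 and 2.26 CPM) in cystic kidneys (log2 3.56, SE 0.63, adjusted p = 0.000486). In both, all cystic kidneys stood above all noncystic ones.

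Tnfrsf12a rose from 30.02, 32.6 and 30.6 CPM to 59.2, 69.8 and 102 CPM in Pkd2 Δ17/Δ17 mice (log2 1.31, SE 0.17, adjusted p = 3.56e-05). Tnfsf15 went from 1.14, 1.25 and 0.825 CPM to 3.37, 2.79 and 4.14 CPM (log2 1.67, SE 0.37, adjusted p = 0.00301), and Tnfrsf13b from 0.708, 0.764 and 0.385 CPM to 1.78, 1.76 and 2.45 CPM (log2 1.68, SE 0.37, adjusted p = 0.00293). None of these ranges met. Tnfrsf10b rose from 4.36, 5.45 and 4.51 CPM to 6.68, 9.39 and 7.50 CPM (log2 0.72, SE 0.19, adjusted p = 0.00917), a call that was lost only without mouse 29 (adjusted p = 0.0612). Tnfrsf1b, at 2.67, 4.69 and 2.86 CPM in noncystic and 6.11, 5.13 and 4.62 CPM in cystic kidneys, overlapped and was just past the threshold (log2 0.63, SE 0.22, adjusted p = 0.0470). Leaving out 1 mouse took the Tnfrsf1b call away in 8 of 12 fits (without mouse 19, 20, 21, 22, 24, 27, 28 or 29, adjusted p up to 0.185).

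The members that fell in Pkd2 Δ17/Δ17 mice were Tnfrsf21, Fas and Tnfsf4. Tnfrsf21 went from 268, 315 and 251 CPM to 121, 118 and 128 CPM (log2 -1.18, SE 0.15, adjusted p = 2.75e-05), and Fas from 10.6, 9.38 and 10.6 CPM to 6.87, 7.19 and 7.12 CPM (log2 -0.53, SE 0.14, adjusted p = 0.00820). Both were apart in every mouse, as they were with wild-type Pkd2. Tnfsf4, a costimulatory ligand on antigen-presenting and endothelial cells, had 14, 25 and 14 reads (0.763, 1.36 and 0.770 CPM) in noncystic and 5, 2 and 4 reads (0.240, 0.0978 and 0.192 CPM) in cystic kidneys (log2 -2.41, SE 0.63, adjusted p = 0.00993). With wild-type Pkd2 the same gene measured 0.831, 0.228 and 0.305 CPM in noncystic and 0.465, 0.0979 and 0.188 CPM in cystic kidneys, and the difference was not past the threshold (log2 -0.81, SE 0.63, adjusted p = 0.379). The difference between these 2 changes, the interaction, was -1.60 on the log2 scale (SE 0.90, adjusted p = 0.687).

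**Figure D3:**
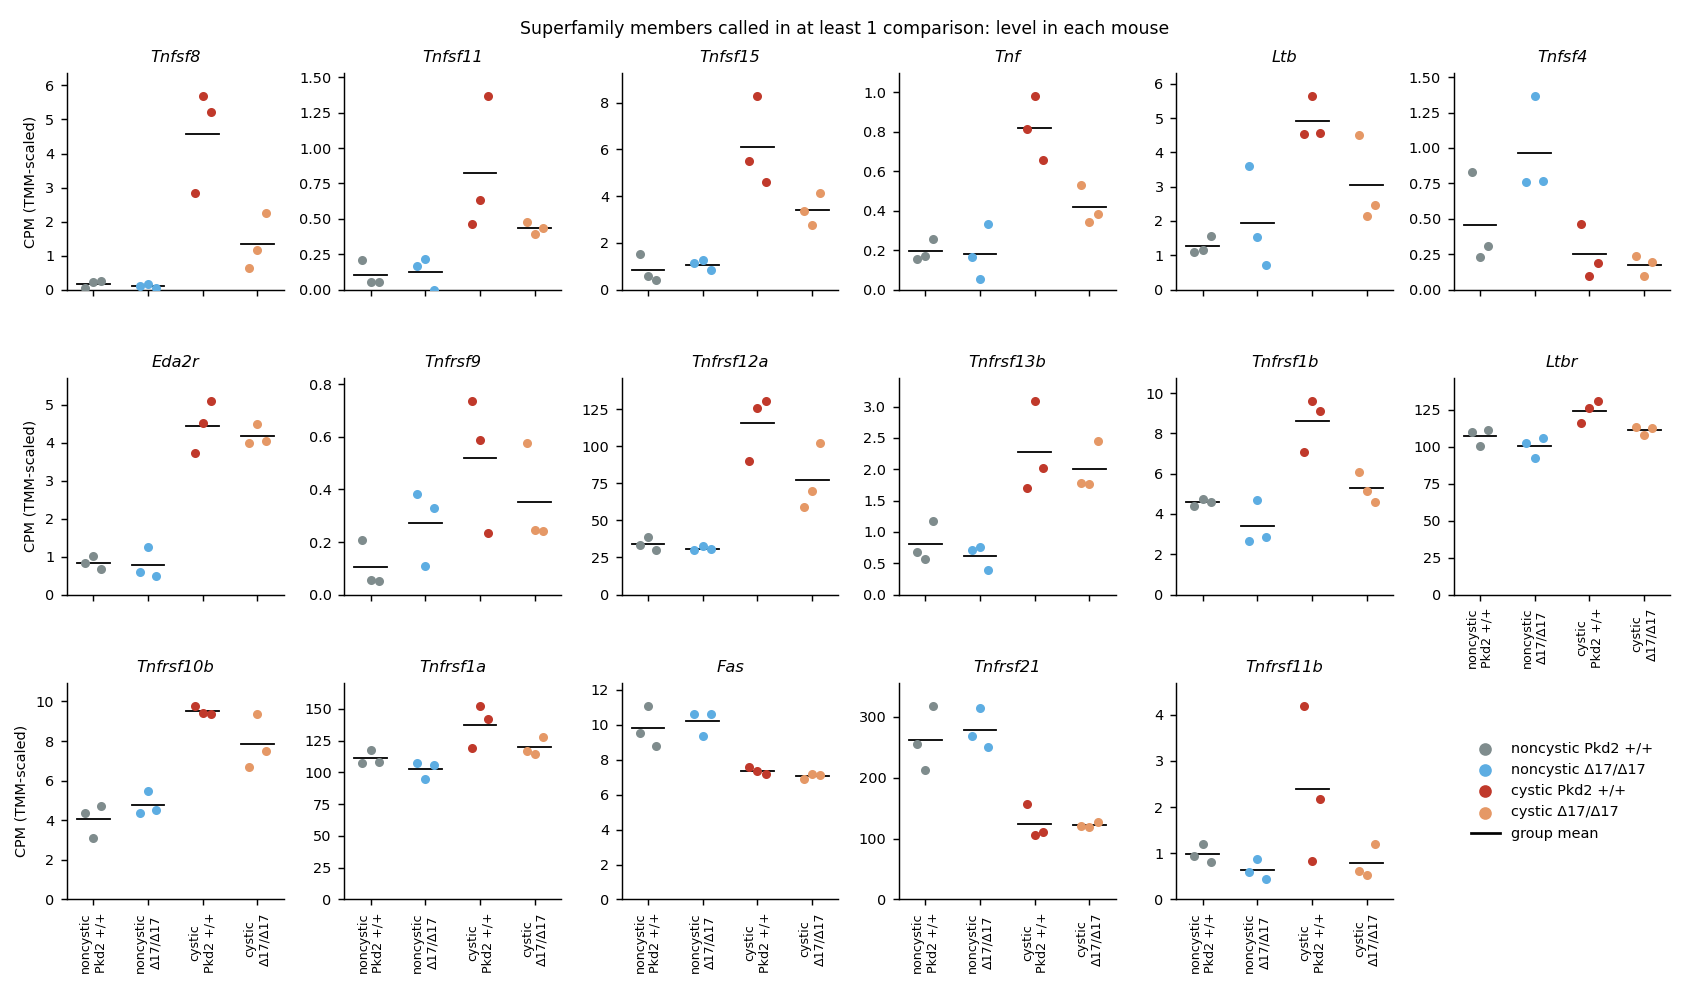
Level (TMM-scaled CPM, linear axes from 0) of the 17 members called in at least 1 comparison, 1 point per mouse and a line at the mean of each group of 3. Tnfsf8, Tnfsf15, Tnfrsf12a and Tnfrsf1b lie lower in cystic Pkd2 Δ17/Δ17 than in cystic Pkd2 +/+ mice on average, whereas the cystic means of Eda2r, Tnfrsf21 and Fas lie close together.

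The next comparison asked what the Pkd2 motif deletion did within cystic kidneys. Of the 42 members, 1 was called, Tnfsf8, which makes 2.38% against 2.23% of all genes and is no more than the background. Tnfsf8 fell from 2.83, 5.68 and 5.23 CPM in cystic Pkd2 +/+ to 0.625, 1.17 and 2.26 CPM in cystic Pkd2 Δ17/Δ17 kidneys, 3.36-fold and without overlap (log2 -1.75, SE 0.41, adjusted p = 0.0335). The call was kept without mouse 30, which had the highest Tnfsf8 level and macrophage sum of its group (log2 -2.34, adjusted p = 0.00837), and was lost without mouse 26, 27, 28 or 29, with an adjusted p of up to 0.169, and in a fit of the cystic groups alone (log2 -1.75, adjusted p = 0.0901). The cystic Pkd2 Δ17/Δ17 level was still above the noncystic one, as given above.

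The other members did not pass in this comparison, and 7 of 42 had an unadjusted p under 0.05, Tnfsf8 included. Over all genes 3532 of 24642 had one under 0.05. Of these 7, Eda alone was higher with the deletion (log2 0.44, SE 0.20, adjusted p = 0.340). Tnfrsf12a had 90.4, 126 and 130 CPM in cystic Pkd2 +/+ and 59.2, 69.8 and 102 CPM in cystic Pkd2 Δ17/Δ17 kidneys, where mouse 30 lay within the range of the first group (log2 -0.58, SE 0.17, adjusted p = 0.0842). The Tnfrsf12a change was past the threshold without mouse 25, without mouse 30, which carried the adrenal reads (log2 -0.84, adjusted p = 0.00535), and with the Wald test of DESeq2 (adjusted p = 0.0207). Tnfrsf1b had 7.08, 9.59 and 9.13 CPM against 6.11, 5.13 and 4.62 CPM, without overlap (log2 -0.70, SE 0.21, adjusted p = 0.0996), and passed without mouse 25 and with DESeq2 (adjusted p = 0.0262). Tnfsf15 had 5.50, 8.27 and 4.61 CPM against 3.37, 2.79 and 4.14 CPM, also apart (log2 -0.83, SE 0.32, adjusted p = 0.230). For Tnfrsf11b, 4.18, 0.832 and 2.17 CPM stood against 0.625, 0.538 and 1.20 CPM with overlap (log2 -1.61, SE 0.48, adjusted p = 0.101), and the change passed without mouse 26 (adjusted p = 0.0176) and with DESeq2 (adjusted p = 0.0398).

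Tnf and Ltb were also apart without reaching the threshold. Tnf had 0.813, 0.979 and 0.659 CPM in cystic Pkd2 +/+ and 0.529, 0.342 and 0.385 CPM in cystic Pkd2 Δ17/Δ17 kidneys (log2 -0.95, SE 0.47, adjusted p = 0.378), and Ltb had 4.53, 5.63 and 4.57 CPM against 4.52, 2.15 and 2.45 CPM, in which mouse 28 fell only just below the lowest wild-type kidney (log2 -0.69, SE 0.39, adjusted p = 0.460). Across the family, 9 members (21.4%) lay wholly lower in cystic Pkd2 Δ17/Δ17 kidneys and 1 (2.38%) wholly higher, next to 10.2% and 8.79% of all genes. The 9 include Lta, with 3, 1 and 3 reads in cystic Pkd2 +/+ and 0, 0 and 1 in cystic Pkd2 Δ17/Δ17 kidneys. Its groups were apart only after scaling. The median log2 change of the members was -0.17 and that of all genes 0.00.

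The smallest differences between the cystic groups among the 16 were those of Eda2r, Tnfrsf21 and Fas. Their log2 changes with the deletion were -0.08 (SE 0.26, adjusted p = 0.927), -0.03 (SE 0.15, adjusted p = 0.970) and -0.06 (SE 0.14, adjusted p = 0.893). The sign turned for Eda2r without mouse 27 (0.03) and for Tnfrsf21 without mouse 25 (0.18). The remaining changes among the 16 were -0.90 (SE 0.59) for Tnfsf11, -0.56 (SE 0.61) for Tnfrsf9, -0.28 (SE 0.18) for Tnfrsf10b, -0.20 (SE 0.09) for Tnfrsf1a, -0.18 (SE 0.32) for Tnfrsf13b (0.10 without mouse 26) and -0.16 (SE 0.08) for Ltbr, none past the threshold. In the cystic Pkd2 Δ17/Δ17 group Tnfsf11 had 0.481, 0.391 and 0.433 CPM, Tnfrsf9 0.577, 0.244 and 0.240, Tnfrsf1a 117, 115 and 128, and Ltbr 113, 108 and 113 CPM. In these mice Ltbr lay wholly below the cystic Pkd2 +/+ group, and the other 3 overlapped it.

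The macrophage markers moved here too. Of the 8, 5 fell with the deletion in cystic kidneys (Cd68, C1qa, C1qb, C1qc and Cd14), none rose, and the summed level was 367 to 531 CPM in cystic Pkd2 +/+ and 271 to 356 CPM in cystic Pkd2 Δ17/Δ17 kidneys. Of 5 dendritic cell markers Itgax fell and the other 4 were not called, with Zbtb46 wholly higher at 16.5 to 18.2 CPM against 14.4 to 15.03 CPM. None of the T-cell or B-cell markers was called by edgeR, with 2 T-cell and 0 B-cell markers at an unadjusted p under 0.05. In the same comparison 3 of 8 proximal tubule, 1 of 6 endothelial and 1 of 4 thick ascending limb markers rose, and none of these fell. No collecting duct, fibroblast or podocyte marker was called. Of 7 collecting duct markers 4 lay wholly lower (57.1%, all genes 10.2%) and none wholly higher. The part of macrophages or of these other cells in the lower Tnfsf8 level was not tested.

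In noncystic kidneys the Pkd2 motif deletion called none of the 42 members by edgeR and 1 of all 24642 genes (0.00406%). At an unadjusted p under 0.05 were 1 member (Cd40) and 1556 of all genes. Without overlap lay 0 members that were higher and 2 that were lower (4.76%), next to 5.69% and 5.09% of all genes. DESeq2 and limma called none of the members either. The noncystic Pkd2 Δ17/Δ17 levels not yet given were 0.164, 0.0545 and 0.330 CPM for Tnf, 3.60, 1.53 and 0.715 for Ltb, 0.164, 0.218 and 0 for Tnfsf11, 0.381, 0.109 and 0.330 for Tnfrsf9, and 0.599, 0.873 and 0.440 for Tnfrsf11b. Tnfrsf1a lay at 107, 94.5 and 106 CPM and Ltbr at 102, 92.2 and 106 CPM in the same mice. For Ltb, mouse 22 reached into the range of the cystic Pkd2 Δ17/Δ17 group.

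The interaction of cystic disease and motif deletion was called for no member by edgeR and for 3 of all genes (0.0122%). At an unadjusted p under 0.05 there were 3 of 42 members and 2053 of all 24642 genes. Cd40, the costimulatory receptor of antigen-presenting cells, was at 0.68 (SE 0.27), Ltb at -1.30 (SE 0.59) and Tnfsf15 at -1.20 (SE 0.53) on the log2 scale, with adjusted p values of 0.510, 0.584 and 0.565. DESeq2 and limma also called no member. The median SE of a member's log2 change between cystic and noncystic Pkd2 +/+ kidneys was 0.19 for the 18 members with an average log2 CPM of at least 1 and 0.50 for the 24 below.

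The 25 tested members called in no comparison are given by their range over the 12 mice. Among the ligands, Tnfsf10 ranged from 25.5 to 42.6 CPM, Eda from 4.14 to 8.61, Tnfsf12 from 5.34 to 7.16, Tnfsf13b (BAFF) from 1.09 to 2.99, Tnfsf9 from 1.04 to 3.43 and Tnfsf13 (APRIL) from 0.235 to 1.42 CPM. The rarest ligands were Tnfsf14 with up to 0.489 CPM, Cd40lg with up to 0.203, Tnfsf18 with up to 0.196 and Lta with up to 0.141 CPM, each of them at no more than 10 reads in a library. These levels were near the limit of detection.

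Among the receptors without a death domain, Tnfrsf19 (TROY) ranged from 3.31 to 15.7 CPM, Cd40 from 4.04 to 7.42, Tnfrsf11a from 4.36 to 7.32, Tnfrsf14 from 0.873 to 2.59, Tnfrsf18 from 0.872 to 2.35, Tnfrsf4 from 0.433 to 1.55 and Cd27 from 0.327 to 0.770 CPM. Tnfrsf8 was at 0 to 0.685 CPM, Tnfrsf13c, the BAFF receptor of B cells, at 0.0471 to 0.490, and Tnfrsf17, the plasma cell receptor of APRIL, at 0.0545 to 0.337 CPM. Tnfrsf25 ranged from 2.55 to 8.40 CPM and Edar, the ectodysplasin receptor, from 1.13 to 2.60 CPM. Of the decoys, Tnfrsf22 ranged from 3.60 to 7.91, Tnfrsf23 from 1.83 to 3.93 and Tnfrsf26 from 0.961 to 2.59 CPM. The BAFF and APRIL axis had low receptor levels throughout, and of Tnfrsf13b, Tnfrsf13c and Tnfrsf17 only Tnfrsf13b passed in a comparison.

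The 38 intracellular mediators downstream of these receptors were then counted. In cystic against noncystic Pkd2 +/+ kidneys 18 rose and 2 fell, or 52.6% called against 31.1% of all genes. These shares are of unlike expression levels. Every mediator had an average log2 CPM of at least 1.77, while 13692 of the 24642 genes reached 1. The share called among genes of like level was not counted. The largest rises were in Ripk3, the kinase of necroptosis, with a log2 change of 1.75 (SE 0.19, adjusted p = 2.18e-06), Nfkbie, an inhibitor of NF-κB that is itself a target of it, with 1.47 (SE 0.14, adjusted p = 7.83e-07), and Traf3, the brake of the noncanonical pathway, with 1.07 (SE 0.12, adjusted p = 2.48e-06). Chuk, an IκB kinase, fell with a log2 change of -0.41 (SE 0.08, adjusted p = 0.00120), and Cflar, which inhibits caspase activation, with -0.39 (SE 0.07, adjusted p = 0.000409).

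With the motif deletion in cystic kidneys 2 of the 38 mediators fell and none rose, 5.26% against 2.23% of all genes. The unlike expression levels apply to these shares too. The mediator calls were not checked with other settings or with a mouse left out. Over all genes the calls in this comparison went from 549 to 167 in a fit of the cystic groups alone. Nfkb2, the subunit of the noncanonical pathway, had 60.8, 60.2 and 65.0 CPM in cystic Pkd2 +/+ and 44.4, 49.9 and 49.3 CPM in cystic Pkd2 Δ17/Δ17 kidneys (log2 -0.37, SE 0.07, adjusted p = 0.0170). It had been at 30.8, 31.7 and 31.5 CPM in noncystic Pkd2 +/+ kidneys. Birc3, a ubiquitin ligase bound to TRAF proteins, had 25.2, 27.2 and 23.9 CPM against 17.2, 19.95 and 18.8 CPM (log2 -0.45, SE 0.11, adjusted p = 0.0395), and 14.6, 12.8 and 12.2 CPM in noncystic Pkd2 +/+ kidneys. Both were wholly lower in cystic Pkd2 Δ17/Δ17 than in cystic Pkd2 +/+ mice and wholly higher than in the noncystic Pkd2 +/+ mice. No mediator was called by edgeR for the deletion in noncystic kidneys or for the interaction, where 1 and 6 of the 38 had an unadjusted p under 0.05. Over all 24642 genes these counts were 1556 and 2053.

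**Figure D4:**
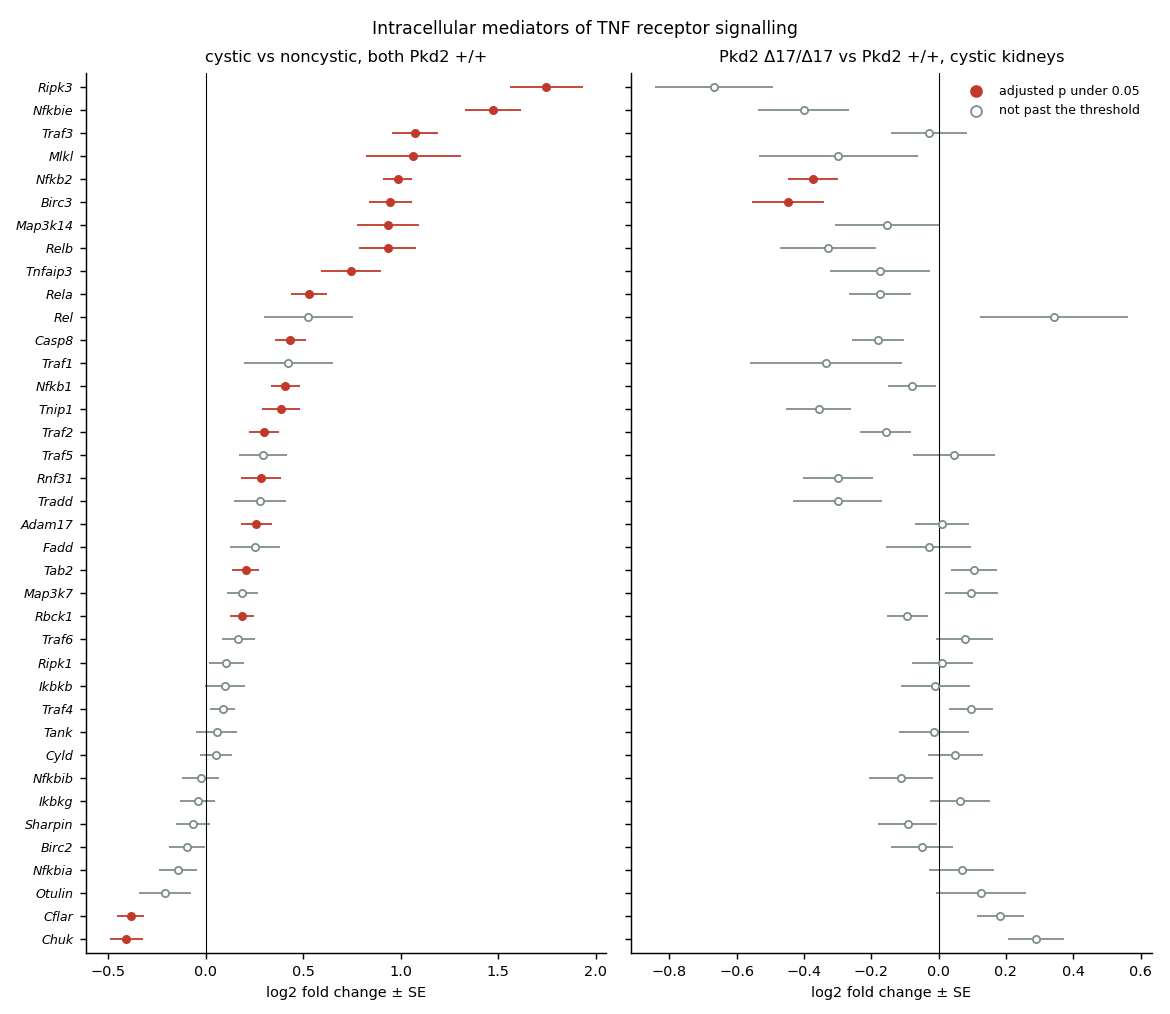
Log2 fold change (edgeR) ± SE of the 38 intracellular mediators between cystic and noncystic Pkd2 +/+ kidneys (left) and between Pkd2 Δ17/Δ17 and Pkd2 +/+ cystic kidneys (right), 3 mice per group, called genes filled in red. The SE is derived from the quasi-likelihood F. On the left 18 are called higher and 2 lower; on the right Nfkb2 and Birc3 are called lower.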

How the data were processed

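RNA of whole kidneys was sequenced in 12 mice, 3 in each of 4 groups. The deposited table holds raw read counts per gene, which the authors made with Trim Galore 0.6.3 and STAR 2.5.3a on GRCm38 with Ensembl 94 genes, and the strand setting is not given in the sources used here. Rows with an identifier but no symbol (343, 0.0225% of reads) stayed in the totals and tests. Counts were scaled by TMM and tested with the quasi-likelihood test of edgeR 4.0.16 (R 4.3.3), fitting the 4 group means to the 12 libraries together (8 residual degrees of freedom), on genes with an average log2 CPM of at least -3 and Benjamini-Hochberg adjustment over all of them at 0.05. DESeq2 1.42.0, limma 3.58.1, other scalings, no filter, Xist as a covariate, fits of the compared groups and fits without 1 mouse were alternatives. Members called in a comparison were named with all values, and the others with their range. Members and lists were chosen with earlier results of these data known. Positions and 3′-UTRs came from GENCODE M21.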

Additional observations from a re-analysis of the deposited data

How the results depend on the processing

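No paired analysis was possible because no mouse number occurs in more than 1 group. The number of members called for the motif deletion in cystic kidneys, 1 in the report, was 4 with the DESeq2 Wald test, 5 without the filter on low counts, 2 with Xist as a covariate and 0 in a fit of the cystic groups alone, and it ran from 0 to 3 when 1 mouse was left out. The 0 was reached without mouse 27, 28 or 29, the 3 without mouse 25 and 2 without mouse 30; the cause was not tested. Over all genes this comparison had 549 calls, against 1090 with DESeq2, 1639 without the filter, 167 in the cystic groups alone and 118 to 861 with 1 mouse left out. The deletion in noncystic kidneys went from 1 to 124 calls without the filter and to 3 with DESeq2, and the interaction from 3 to 566 and 137, with no member among them. The member counts between cystic and noncystic kidneys ran from 12 to 16 with wild-type Pkd2 and from 9 to 14 with the motif deleted. The sign of the deletion change in cystic kidneys turned for Tnfrsf21 with limma (0.0032) and with Xist as a covariate (0.0169). With 1 mouse left out the log2 changes with a turned sign ran from -0.134 to 0.178 for Tnfrsf21, -0.199 to 0.0255 for Eda2r, -0.353 to 0.103 for Tnfrsf13b and -0.888 to 0.290 for Tnfsf4. The library sizes limit the precision of members with few reads, and replicates are separate mice of unstated sex.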
